A study of Mus musculus with 4 samples.

Results

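Killer lectin-like receptors are a family of C-type lectin-like proteins on the cell surface, and 10 of their genes were followed here over 4 microarrays of sorted mouse T cells. The members are Klrc1, Klrc2, Klrc3, Klrd1, Klrk1, Klrg1, Klrb1a, Klrb1c, Klra1 and Klra7, taken by gene name with every probe that carries the name. They account for 10 of the 22295 named genes and 16 of the 55681 probes on the array. The set was chosen by the measured difference between the spleen arrays, several of its genes being among those most raised in deltaDC cells, so the difference between the spleen arrays is a description and carries no test. All 4 samples were cells labelled as regulatory T cells (Tregs) from male C57BL/6 mice, sorted as DAPI negative, CD4 positive and CD25 positive, and Foxp3, the factor that defines Tregs, was not used in the sort. The groups were spleen and thymus cells of wild-type (WT) mice and spleen and thymus cells of deltaDC mice, with cells of 3 mice pooled per genotype and 1 array per group. The labels do not spell out deltaDC, a name used in the field for mice without dendritic cells, and they give no transgene, promoter or age. Spleen CD4 T cells were purified with a negative selection kit, whereas thymus cells were depleted of CD8-bearing cells, so organ and enrichment method cannot be told apart. From each pool 10 ng of RNA with an integrity number between 8.4 and 9.9 was labelled with Cy3.

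The receptors are best known from natural killer (NK) cells, where inhibitory members bind major histocompatibility complex (MHC) class I or related proteins on healthy cells and hold killing back, while activating members pair with small adaptor proteins and trigger it. NKG2 chains (Klrc genes) pair with CD94 (Klrd1), NKR-P1 receptors (Klrb1 genes) bind other C-type lectins, Ly49 receptors (Klra genes) bind MHC class I itself, and KLRG1 binds cadherins. Most of the genes lie together on mouse chromosome 6 in the NK gene complex, and several are also found on effector, memory-like and innate-like T cells.

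All 4 arrays shared 1 slide and were read in 1 colour. Values are background-subtracted processed signals, and differences are on the log2 scale after each array was set to its own 75th percentile. A gene counted as measured on an array only where the scanner software marked its probe as well above background, which held for 48.7% to 50.7% of spots. Probes printed 10 times on an array gave a log2 SD between spots of 0.36 for signals under 50, 0.11 up to 500, 0.063 up to 5000 and 0.049 above. The error given with a difference combines these SDs by signal level and was not measured on the gene's own probe. With 1 array per group this spot error is the only error that could be measured, and it leaves out the spread between mice. All 10 Treg markers were well above background on the 4 arrays, with Foxp3 signals of 10226 and 10992 in WT and deltaDC spleen and 9283 and 11360 in WT and deltaDC thymus. In pooled cells a higher signal from more cells of one type and from more RNA per cell cannot be told apart.

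The NKG2 and CD94 genes were low or below background on 3 arrays, and each was highest on the deltaDC spleen array. Klrc1 encodes NKG2A, the inhibitory chain that binds the nonclassical MHC protein Qa-1 together with CD94. Its signal was 24.6 and 1790 in WT and deltaDC spleen cells and 31.6 and 54.3 in WT and deltaDC thymus cells. The deltaDC spleen array was high and the other 3 were low, with WT thymus and WT spleen less than 2 spot SDs apart. The log2 difference between deltaDC and WT was 5.98 ± 0.36 (SD between spots) in spleen, a 63.3-fold ratio, and 0.74 ± 0.37 in thymus. With normexp background correction these were 4.28 and 0.27, and with the median over probes the thymus difference was 0.16. The brightest Klrc1 probe, which gave the 63.3-fold ratio, lists no RefSeq transcript. A second Klrc1 probe, which lists Klrc1 alone, was above background in deltaDC spleen alone, with a bound of at least 13.7-fold in spleen. Klrd1 encodes CD94, the partner chain of the NKG2 receptors. Its signals were 39.1, 825, 81.9 and 144.1 in that order, which is kept below, again highest on the deltaDC spleen, and each step in their order was over 2 spot SDs. Its log2 difference was 4.20 ± 0.36 in spleen and 0.78 ± 0.16 in thymus, or 2.84 and 0.46 with normexp. Klrk1 encodes NKG2D, an activating receptor for stress-induced ligands. Its signal was 4.5 and 147.6 in WT and deltaDC spleen cells and 4.2 and 8.0 in WT and deltaDC thymus cells. Only the deltaDC spleen signal was well above background, so the spleen ratio is a bound of at least 7.5-fold, set against the lowest signal well above background on the WT array.

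Klrc2 and Klrc3 encode NKG2C and NKG2E, activating relatives of NKG2A, and their probes are shown because what they can tell apart differs. The brightest Klrc3 probe lists RefSeq transcripts of 3 genes (Klrc1, Klrc2 and Klrc3), so its signal cannot be given to one of them. The Klrc2 and Klrc1 probes shown list no RefSeq transcript. The probes are 60 bases long and are written 5′ to 3′ as in the scanner files.
Klrc3, probe A_55_P2155146, chr6:129589103-129589162 (mm9, minus strand): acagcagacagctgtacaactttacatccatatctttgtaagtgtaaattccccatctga
Klrc3, probe A_55_P2155149, chr6:129591495-129591554 (mm9, minus strand): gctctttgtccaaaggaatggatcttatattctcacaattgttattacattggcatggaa
Klrc2, probe A_51_P475788, chr6:129610628-129610687 (mm9, minus strand): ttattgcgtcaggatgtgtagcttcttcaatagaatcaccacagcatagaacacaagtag
Klrc1, probe A_52_P390127, chr6:129616237-129616296 (mm9, minus strand): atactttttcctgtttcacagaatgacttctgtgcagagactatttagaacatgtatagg
The shared probe read 6.6 and 208.6 in WT and deltaDC spleen cells and 7.7 and 16.6 in WT and deltaDC thymus cells, with only the deltaDC spleen above background and a bound of at least 10.6-fold. The other Klrc3 probe shown, which lists Klrc3 alone, read 3.6, 18.4, 3.6 and 3.8, above background on the deltaDC spleen but too close to the floor for a fold. The remaining Klrc3 probe was not well above background on any array, at 4.1 to 6.3. The Klrc2 probe read 3.4, 30.9, 3.3 and 3.4, a spleen bound of at least 1.57-fold, under the 2-fold mark used here. All 60 of its bases match the RefSeq sequence (GRCm38.p6) upstream of both annotated Klrc2 starts, from 113 to 54 bases before the one and from 73 to 14 bases before the other. The same stretch before Klrc3 differs from the probe at 2 of 60 bases. The Klrc2 probe therefore covers sequence before these starts, which a transcript from either start would not contain. Which RNA gave its low signal of 30.9 on deltaDC spleen was not tested.

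**Figure D1:**
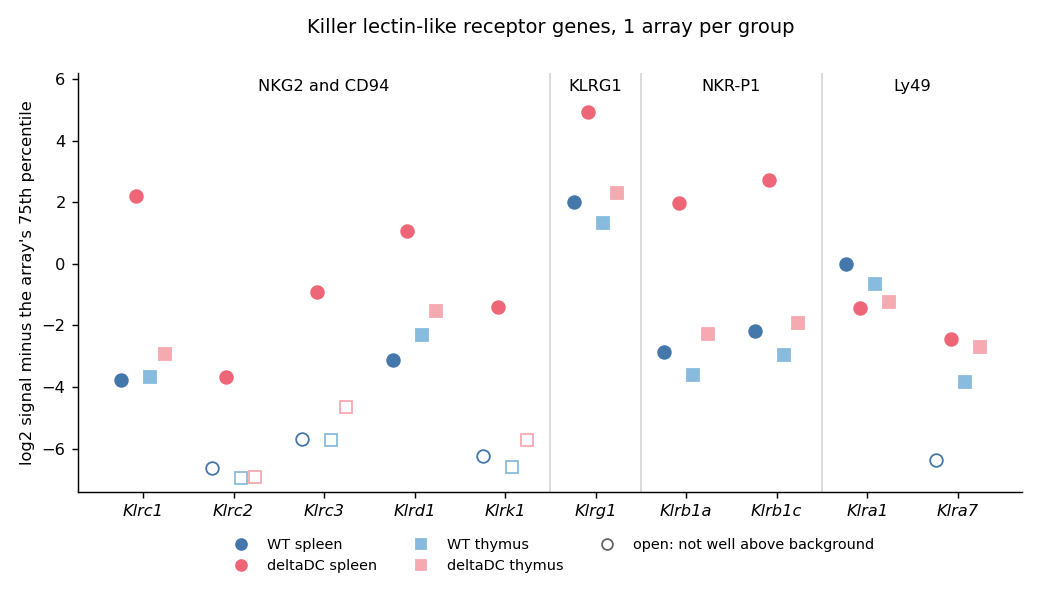
Signal of the 10 members on the 4 arrays (1 per group), as log2 signal minus each array's 75th percentile, for the probe that stands for each gene; open symbols were not well above background. The deltaDC spleen array is the highest for 9 of the 10 genes, for Klra7 by less than 2 spot SDs, while Klra1 is highest on WT spleen. Levels can be compared between arrays for 1 gene, not between genes.

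KLRG1 is an inhibitory receptor for cadherins that is also known from short-lived effector T cells and from effector Tregs. Klrg1 had the highest signals of the members, in the range where the spot error is smallest. Its signals were 1359 and 11916 in WT and deltaDC spleen cells and 1021 and 2052 in WT and deltaDC thymus cells. The gene was well above background on all 4, and the deltaDC sample had the higher signal in both organs. The log2 difference between deltaDC and WT was 2.93 ± 0.08 in spleen (7.63-fold) and 0.97 ± 0.09 in thymus (1.96-fold). The order of the 4 arrays was deltaDC spleen, deltaDC thymus, WT spleen and WT thymus, and each step was larger than 2 spot SDs. Klrg1 (chr6:122220629-122220688, mm9) is also the one member whose probe lies outside the NK complex interval described below.

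Both NKR-P1 members had the same profile over the arrays. Klrb1c encodes NKR-P1C, the activating receptor that carries the NK1.1 epitope of C57BL/6 mice. Its signals were 74.8 and 2573 in WT and deltaDC spleen and 51.9 and 109.3 in WT and deltaDC thymus. Klrb1a, which encodes the related activating receptor NKR-P1A, read 46.9, 1553, 33.4 and 85.9 in that order. For each gene the deltaDC spleen array was far above the rest and the WT thymus array was lowest, for Klrb1a by less than 2 spot SDs. The log2 difference between deltaDC and WT for Klrb1c was 4.90 ± 0.13 in spleen and 1.04 ± 0.16 in thymus. For Klrb1a it was 4.85 ± 0.36 in spleen and 1.32 ± 0.37 in thymus. With normexp the differences were 3.99 and 0.51 for Klrb1c and 3.77 and 0.61 for Klrb1a. The deltaDC thymus and WT spleen signals of neither gene differed by more than 2 spot SDs. A second Klrb1c probe read 10.3, 371.7, 4.5 and 4.5, with only the deltaDC spleen above background and a spleen bound of at least 18.9-fold.

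The Ly49 members did not share this profile. Klra1 encodes Ly49A, an inhibitory receptor for MHC class I, and was the only member with a lower signal on the deltaDC spleen. Its signals were 335.9 and 146.0 in WT and deltaDC spleen cells and 255.6 and 175.2 in WT and deltaDC thymus cells. WT was above deltaDC in both organs, the deltaDC arrays being less than 2 spot SDs apart, with log2 differences of -1.40 ± 0.16 in spleen and -0.58 ± 0.16 in thymus. Klra7 encodes Ly49G, another inhibitory receptor for MHC class I. It read 4.1, 72.4, 28.5 and 64.1, where the WT spleen alone was not above background. Its spleen difference is a bound of at least 3.68-fold, and its thymus difference was 1.13 ± 0.37, or 0.40 with normexp. The deltaDC spleen and deltaDC thymus signals of Klra7 differed by less than 2 spot SDs, and with the median over probes the thymus was higher by 0.31 on the log2 scale. The NKG2, CD94, KLRG1 and NKR-P1 genes measured on both arrays were at least 6.11-fold apart.

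Ly49 genes are near copies of one another, and the Ly49 probes are shown because they share sequence with probes for other members of the cluster. Capitals mark the longest run shared with a probe of another killer lectin-like gene.
Klra7, probe A_55_P2004541, chr6:130168899-130168958 (mm9, minus strand): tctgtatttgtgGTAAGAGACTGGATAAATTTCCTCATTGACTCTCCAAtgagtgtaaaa
Klra7, probe A_51_P500090: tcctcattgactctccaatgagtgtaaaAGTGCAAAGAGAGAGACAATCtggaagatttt
Klra1, probe A_55_P2004551, chr6:130314070-130314129 (mm9, minus strand): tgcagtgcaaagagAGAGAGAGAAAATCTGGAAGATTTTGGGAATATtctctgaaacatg
The runs are 37 bases shared with a Klra23 probe, 21 with a Klra22 probe and 33 with a Klra16 probe, whereas the longest run for any Klrc, Klrd1, Klrk1, Klrg1 or Klrb1 probe of the set was 11 bases. These runs compare probes with probes, so they do not show which transcripts a probe detects. The Klrc3 probe that lists 3 genes had a longest run of 10 bases, while each Ly49 probe shown lists 1 RefSeq gene. Which gene a signal under a Ly49 name comes from was not tested and stays uncertain. The Klra16 probe that shares the run with Klra1 was not well above background on any array, at 4.0 to 9.6. Another Klra16 probe, A_55_P1958039, lies beside the Klra1 probe at chr6:130314197-130314256 (mm9). It read 3.6, 20.6, 12.8 and 15.6, above background on deltaDC spleen alone, with a spleen bound of at least 1.05-fold. Klra1 was not among the 4 members with more than 1 probe. The Klra16 values given below come from a further probe, A_55_P2028734. The second Klra7 probe shown read 6.8, 25.8, 18.5 and 34.0, above background on both deltaDC arrays only. The third read 4.3 to 8.9 and was not well above background on any array.

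**Figure D2:**
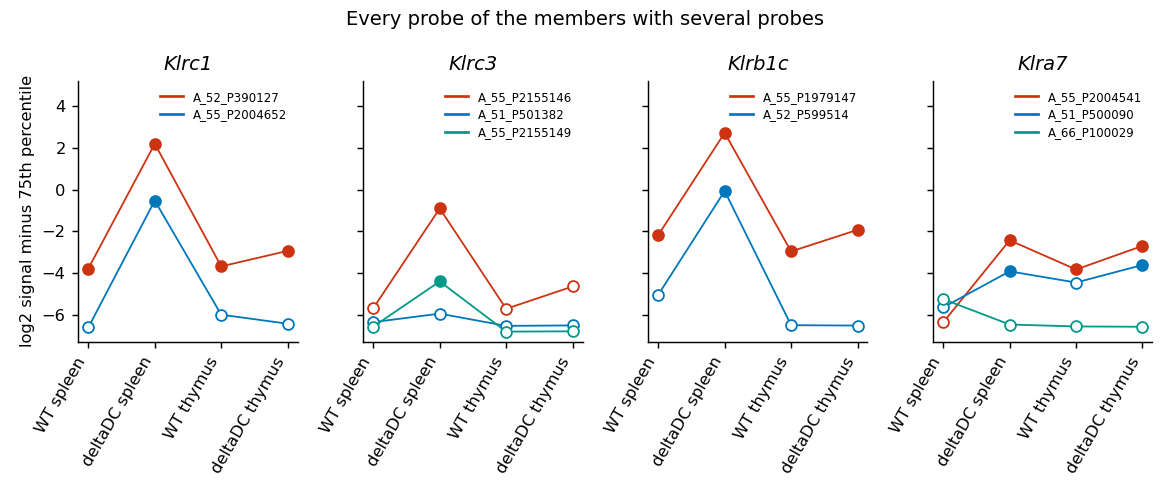
Every probe of the 4 members with more than 1 probe, as log2 signal minus the array's 75th percentile on each array; filled points were well above background. For Klrc1 and Klrb1c both probes peak on the deltaDC spleen array, with second-probe signals of 270.2 and 371.7 there. For Klra7 2 probes are low on WT spleen and 1 is never well above background.

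Counted together, 6 members had a measured spleen difference, of which 5 were at least 2-fold higher in deltaDC cells and 1, Klra1, was lower. The shares over all 12528 genes with such a value were 6.41% higher and 2% lower, and since this contrast chose the members nothing is read from the comparison. Another 3 members (Klrc3, Klrk1 and Klra7) had bounds of at least 2-fold higher, as did 30.2% of the 877 genes above background in deltaDC but not in WT spleen cells. The median log2 difference of the 6 measured members was 4.52, beside -0.0047 over all genes.

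The thymus arrays were not used to choose the members, although they came from the same pools of 3 mice per genotype. Of the 7 members measured on both thymus arrays, 3 were at least 2-fold higher in deltaDC cells (Klrb1a, Klrb1c and Klra7) and 0 were lower. Over all 13038 genes measured there, 0.928% were at least 2-fold higher and 0.667% lower. The median difference of the 7 members was 0.97 on the log2 scale, beside 0.05 over all genes, and 6 of the 7 were above 0, with Klra1 below. The thymus differences were small against those in spleen, from 0.74 for Klrc1 to 1.32 for Klrb1a among those above 0. The remaining 3 members (Klrc2, Klrc3 and Klrk1) were not well above background on either thymus array. On the same arrays 6 of 7 measured B cell markers and 5 of 7 neutrophil markers were at least 2-fold higher in deltaDC cells, and their part in the members' values was not tested. One array against 1 allows no test, and the 3 higher calls lie close to the 2-fold line. With another background correction (normexp) Klrg1 was the 1 member past it. The offset of 50 in normexp by itself shrinks ratios between low signals. With the median of all probes in place of the brightest, Klrb1a was the 1 member past the line.

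**Figure D3:**
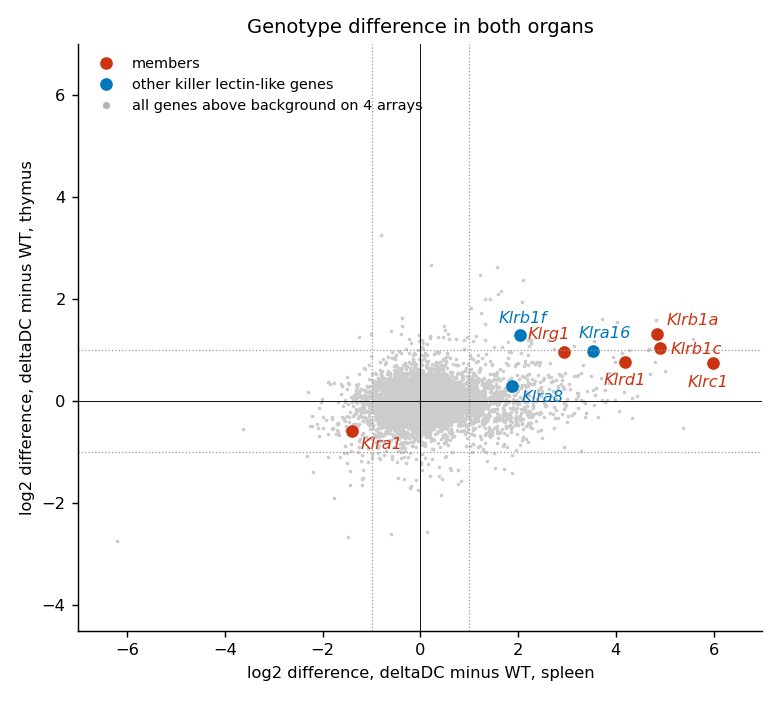
Log2 difference between deltaDC and WT in spleen (x axis) and thymus (y axis) for all 12285 genes well above background on the 4 arrays (grey), the 6 members among them (red) and the other killer lectin-like genes among them (blue). Dotted lines mark 2-fold. Klrc1, Klrb1c, Klrb1a, Klrd1 and Klrg1 lie between 2.93 and 5.98 in spleen and between 0.74 and 1.32 in thymus, and Klra1 lies below 0 on both axes.

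Between organs, the WT arrays showed little. Of the 6 members measured on both WT arrays, 0 differed by 2-fold, beside 6.53% of all 12481 measured genes that were higher and 3.03% that were lower in thymus. Their median difference was -0.66 on the log2 scale (thymus minus spleen), beside -0.08 over all genes. In the authors' deposited log2 values Klrb1a and Klrb1c were just past 2-fold lower in WT thymus. On the deltaDC arrays 5 of 7 measured members were at least 2-fold lower in thymus, beside 6.16% of all 12802 measured genes, with a median of -2.63. The lower genes were Klrc1 (-5.14), Klrb1c (-4.65), Klrb1a (-4.27), Klrg1 (-2.63) and Klrd1 (-2.61). Klrc3 and Klrk1 had bounds of at least 13.1-fold and 9.27-fold lower, and of the 603 genes above background in deltaDC spleen but not in deltaDC thymus 35.3% had a bound of at least 2-fold lower. Klra1 (0.17) and Klra7 (-0.27) differed by less than 2-fold. This comparison shares the deltaDC spleen array with the one that chose the members.

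A fit with genotype and organ as terms (limma, 1 residual degree of freedom) allowed a two-sided test of organ over both genotypes. Of 13490 genes tested, 64 (0.474%) passed an adjusted p of 0.05, and 0 of the 7 members tested did. At an unadjusted p of 0.05, 0 members and 2727 of all genes passed. The lowest Benjamini-Hochberg adjusted p among the members from limma was 0.286, for Klrg1, whose thymus minus spleen term was -1.65 ± 0.60 (SE). Klrb1c had the largest term, -2.72 ± 1.16 with an adjusted p of 0.327 from limma, and was lower in thymus within both genotypes. The precision of the fit is low, with SEs from 0.28 for Klra1 to 1.56 for Klrc1. Its 1 residual degree of freedom is the difference between the organs in the genotype difference, which also holds the deltaDC spleen signals. A gene high on that array alone gets a large SE, so for such members a missed threshold was largely set by their choice. The organ term also contains the deltaDC spleen signals through which the members were chosen, so nothing is read from its direction. A missed threshold does not show that the organs are alike.

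Of 28 other killer lectin-like genes listed, 18 were matched to a named gene on the array and 10 were well above background on at least 1 array. Klra22 was not matched, although a probe carries its name. On the spleen arrays 4 were measured and 4 were at least 2-fold higher in deltaDC cells, beside 6.41% of all measured genes. The log2 differences were 3.54 for Klra16, 2.77 for Klrb1b, 2.04 for Klrb1f and 1.88 for Klra8. The Klra16 probe behind the value of 3.54 had no mm9 position, so which Ly49 gene gave its signal is uncertain. Klrb1b and Klrb1f belong to the NKR-P1 group, and Klra8 encodes Ly49H, an activating receptor known for its viral ligand. Another 5 had bounds of at least 2-fold higher (Klre1, Klrb1, Klri2, Klra9 and Klra23). On the thymus arrays 1 of 5 measured genes, Klrb1f, was at least 2-fold higher (1.29), beside 0.928% of all measured genes, and the median was 0.75. Klrb1b and Klra4, with deltaDC thymus signals of 101.1 and 42.2, had thymus bounds of at least 5.77-fold and 2.50-fold higher. A value of either kind of 2-fold or more was found for 33.9% of the 493 genes above background in deltaDC but not in WT thymus. Of the members, 0 were among them. Klra8 and Klra9 did not have their highest signal on deltaDC spleen, unlike most members. Klra8 read 23.6 and 99.8 in WT and deltaDC spleen cells and 114.7 and 145.3 in WT and deltaDC thymus cells. Klra9 read 8.6, 66.7, 80.9 and 98.7. Both were highest on deltaDC thymus, but WT thymus was less than 2 spot SDs from it and from deltaDC spleen. WT spleen was lowest for both, as for Klra7, and Klra8 was 2.03 higher in WT thymus than in WT spleen on the log2 scale.

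The NK complex interval, here the stretch from the Klrb1a to the Klra1 probe (chr6:128568515-130314129, mm9), holds probes of 45 named genes. Of these, 9 are members, 16 are other killer lectin-like genes and 20 are other genes, many of them further C-type lectins. On the spleen arrays 4 of 5 measured members and 3 of 3 measured other killer lectin-like genes were at least 2-fold higher in deltaDC cells. Over all 12528 measured genes 6.41% were. Among the other genes of the interval, 0 of 7 measured genes were higher and 1 was lower, Clec2e at -1.39, while Clec7a had a bound of 1.92. Cd69, an early activation marker that lies between the NKR-P1 and NKG2 genes, was at -0.27. Clec2d, whose product is a ligand of NKR-P1 receptors, was at 0.01, and Gabarapl1, next to the CD94 and NKG2 genes, was at 0.34. In thymus 0 of 7 measured other genes reached 2-fold. The members were picked for this contrast, so the contrast between them and their neighbours is a description.

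**Figure D4:**
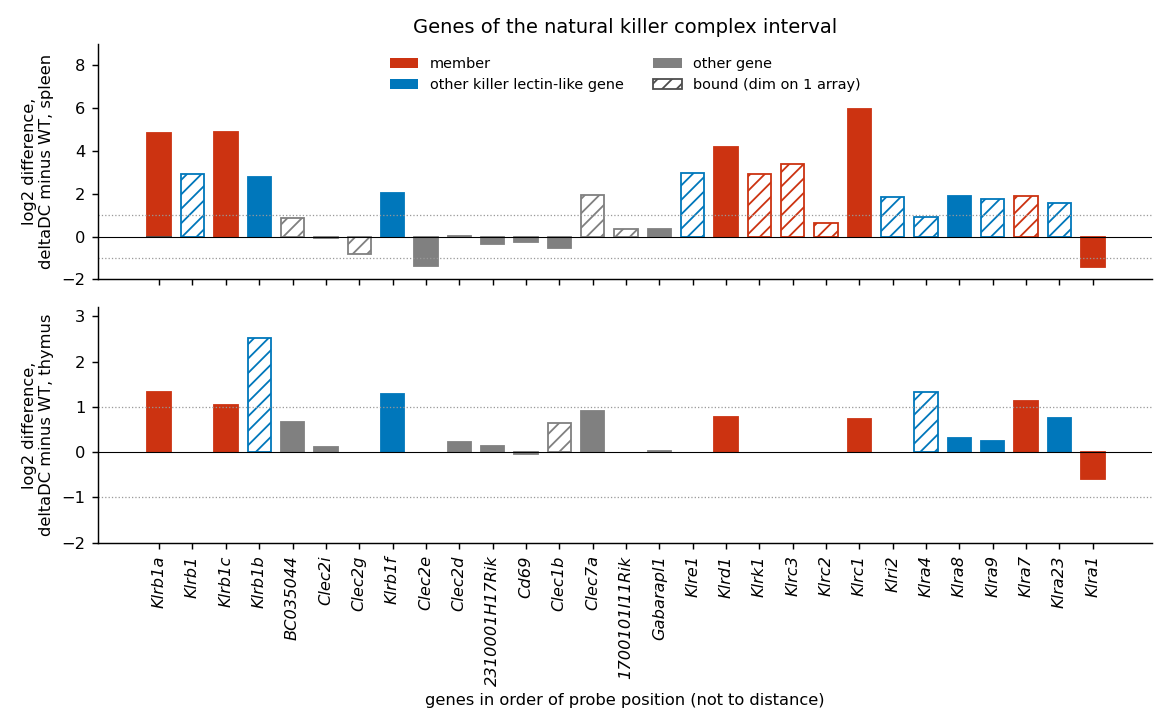
Log2 difference between deltaDC and WT in spleen (top) and thymus (bottom) for the genes of the NK complex interval that were well above background on at least 1 array, in order of probe position. Hatched bars have 1 array not above background and are bounds, or for Klrb1b and Clec1b in thymus plain ratios to the dim signal. A missing bar means no value could be given. The tall bars in spleen belong to killer lectin-like genes, up to 5.98 for Klrc1, while neighbours such as Cd69 (-0.27) and Clec2d (0.01) lie near 0.

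Promoter sequence was available from RefSeq (GRCm38.p6) for 8 of the 10 members, in 10 windows of 300 bases from 250 before to 50 after a start site. Klrd1 and Klrg1 had no entry. The search covered 4 short motifs on both strands, each counted as present or absent. They were the Runt motif ACCACA, the T-box motif GGTGTG, the ETS motif AGGAAG and the STAT motif TTCNNNGAA. The last letters of TGTGGT, the Runt motif on the other strand, can overlap the first of GGTGTG. The Runt letters, the core bound by Runx proteins, were found in 8 of the 10 windows and in 7 of the 8 genes, Klra7 being the exception. Over all 32851 windows of the table the share was 16.8%, and among 16 other killer lectin-like genes 1 held it, Klre1. The 40 bases around each match are shown, on the strand of the gene, because the match is the feature most of these genes share. Capitals mark the match, which reads TGTGGT where it lies on the opposite strand.
Klrc1, 87 bases before the start, chr6:129679038-129679077: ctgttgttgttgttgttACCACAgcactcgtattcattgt
Klrc2, 76 bases before, chr6:129660610-129660649: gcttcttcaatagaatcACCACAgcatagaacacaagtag
Klrc2, 49 bases before, chr6:129660583-129660622: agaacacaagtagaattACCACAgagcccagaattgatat
Klrc3, 76 bases before, chr6:129643342-129643381: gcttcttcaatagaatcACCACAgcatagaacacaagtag
Klrc3, 49 bases before, chr6:129643315-129643354: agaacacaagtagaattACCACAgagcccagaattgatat
Klrk1, 129 bases before, chr6:129623971-129624010: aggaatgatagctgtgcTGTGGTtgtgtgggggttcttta
Klrb1a, 126 bases before, chr6:128623038-128623077: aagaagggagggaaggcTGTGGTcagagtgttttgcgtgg
Klrb1c, 89 bases before, chr6:128788708-128788747: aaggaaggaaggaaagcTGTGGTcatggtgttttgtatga
Klra1, 201 bases before, chr6:130387053-130387092: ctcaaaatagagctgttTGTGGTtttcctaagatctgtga
The genes are not independent examples, since the Klrc2 and Klrc3 promoters were 96.3% identical and the Klrb1a and Klrb1c stretches above share 31 of 40 bases. The match is also present before Klra1, the member with the opposite difference in spleen. The other motifs were found in 1 of 10 windows for T-box (19% of all windows), 4 for ETS (35.4%) and 1 for STAT (8.3%). The Klrc2 probe shown earlier covers the match 76 bases before the start. Each match is a description of letters, and no binding was measured.

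The genes for signalling partners were mostly flat. Of 20 measured adaptors, kinases and phosphatases, 3 reached 2-fold higher in deltaDC spleen cells, with a median log2 difference of 0.05 over the 20. The 3 were Plcg2 (2.31), Tyrobp (2.26) and Fcer1g (2.15), beside a share of 6.41% over all measured genes. Tyrobp encodes DAP12, the adaptor of activating NKG2 and Ly49 receptors, and read 190.1 and 1048 in WT and deltaDC spleen and 765.5 and 1344 in WT and deltaDC thymus. It was low on the WT spleen array alone, a different order from that of the NKG2 genes. Hcst, which encodes DAP10, the adaptor of NKG2D, differed by 0.10 in spleen. In thymus 0 of 20 reached 2-fold. Of the genes listed as ligands of the receptors, 0 of 9 measured reached 2-fold in spleen, with H2-T23, the gene of Qa-1, at 0.10. In thymus 1 of 10 was higher, Fcgr1 (1.24), at low signals of 22.4 and 54.1 in WT and deltaDC cells. Fcgr1 encodes a receptor for antibodies, and its place in the list as a ligand is uncertain.

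Transcription factors of cytotoxic and innate-like lymphocytes included several with large differences in spleen. Of 15 measured, 5 were at least 2-fold higher in deltaDC spleen cells, Zbtb16 (3.69), Id2 (3.55), Tbx21 (3.15), Prdm1 (1.82) and Runx3 (1.34), and Bach2 was lower (-1.02). Zbtb16 encodes PLZF, the factor of NKT cells and other innate-like lymphocytes, and Tbx21 encodes T-bet. The median of the list was 0.63. Over all measured genes 6.41% were at least 2-fold higher in deltaDC spleen and 2% were lower. Zeb2 had a bound of 2.51. In thymus 0 of 16 reached 2-fold.

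**Figure D5:**
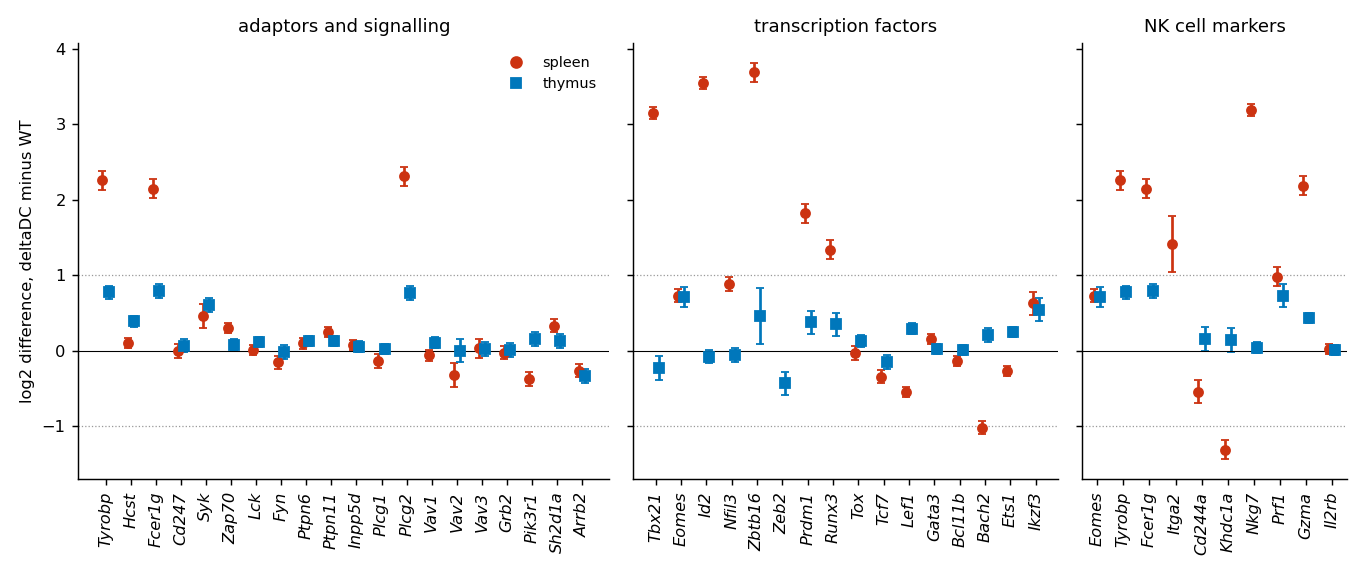
Log2 difference between deltaDC and WT in spleen (red circles) and thymus (blue squares) for every measured gene of 3 lists, with error bars of 1 SD between spots; dotted lines mark 2-fold. In spleen a few genes of each list stand far above 0 (Zbtb16 at 3.69, Nkg7 at 3.19, Plcg2 at 2.31), and in thymus all points lie within 2-fold.

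Markers of NK cells were read on the same arrays, and their part in the members' signals was not tested. Of 13 markers 11 were well above background on some array, while Styk1 and Cma1 were on none. On the spleen arrays 5 of 10 measured markers were at least 2-fold higher in deltaDC cells, beside 6.41% of all measured genes. The 5 were Nkg7 (3.19), Tyrobp (2.26), Gzma (2.18), Fcer1g (2.15) and Itga2 (1.42), and Khdc1a was lower (-1.31). Ncr1, which encodes the NK cell receptor NKp46, read 14.8 and 72.8 in WT and deltaDC spleen cells and 4.1 and 12.4 in WT and deltaDC thymus cells and was above background in deltaDC spleen alone. Eomes differed by 0.73, Prf1, the perforin gene, by 0.98, Il2rb by 0.02 and Cd244a by -0.54. The summed signal of the list without Il2rb, which Tregs also express, was 4984, 31271, 15969 and 20083 in the same order. Nkg7 gave 23813 of it in deltaDC spleen. Without Nkg7, left out after its values were seen, the sums were 2714, 7458, 8293 and 11973, highest in deltaDC thymus. Gzma in turn gave 337.4, 1764, 5702 and 7921 of these sums, so the array with the highest sum depends on single genes. In thymus 0 of 9 measured markers reached 2-fold. Of the markers of gamma-delta T cells, NKT cells and innate lymphoid cells, 6 of 9 measured were at least 2-fold higher in deltaDC spleen, led by Cd163l1 (5.38), Il17re (4.81), Il1r1 (3.72) and Zbtb16 (3.69). Their summed signal was 4351, 13456, 4937 and 4438 in the same order, highest in deltaDC spleen. Maf was the largest part of it in spleen, at 2738 and 6081 in WT and deltaDC cells. Cd163l1 read 31.0, 1484, 1378 and 985 in the same order, low on WT spleen alone. In thymus 1 of 10 measured markers of this list was at least 2-fold higher in deltaDC cells. It was Il1r1 (1.61), at low signals of 20.1 and 63.3 in WT and deltaDC thymus. The part of gamma-delta T cells, NKT cells and innate lymphoid cells in the members' signals was not tested either.

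Markers of other cells gave the following counts, beside shares over all measured genes of 6.41% higher in deltaDC spleen and 0.928% in deltaDC thymus. Cd8a was not above background on either spleen array, and 1 of 3 measured CD8 T cell markers was higher in deltaDC spleen (Crtam, 1.08). Of 8 neutrophil markers 1 was measured as higher in spleen (Camp, 4.66) and 6 had bounds, with a summed signal of 159 and 10294 in WT and deltaDC spleen cells and 1008 and 2689 in WT and deltaDC thymus cells. In thymus 5 of 7 measured neutrophil markers were at least 2-fold higher in deltaDC cells. B cell markers were higher in deltaDC thymus for 6 of 7 measured genes, and 0 of 4 were in spleen. Of macrophage markers 1 of 7 was higher in spleen (Adgre1, 1.27) and Lyz2 had a log2 bound of 3.43, and of dendritic cell markers 1 of 2 (Batf3, 2.20), with bounds for Itgax and Zbtb46. T cell markers reached 2-fold for 0 of 8 genes in either organ. Among 10 Treg markers 0 were higher and 2 were lower in deltaDC spleen, Gpr83 (-1.46) and Lrrc32 (-1.07), and 0 reached 2-fold in thymus.

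The genes with the nearest profile over the 4 arrays were found by the root mean square distance of mean-centred log2 values among 12285 genes. Nearest to Klrb1c were Klrb1a (distance 0.15), Cxcr6 (0.29), Il4 (0.32), Klrc1 (0.41) and Plekhf1 (0.43). Nearest to Klrc1 were Klrb1c (0.41), Klrb1a (0.45), Cxcr6 (0.48), Il4 (0.62) and Arl4d (0.64). Cxcr6 is a chemokine receptor of effector and innate-like T cells, and Il4 is the type 2 cytokine that NKT cells release. Nearest to Klrg1 were St6galnac2 (0.18), Slc24a3 (0.19), Clnk (0.21), Il23r (0.23) and Ccr3 (0.25). No ranking is given for Klra7, whose WT spleen value was not measured. The distances rest on 4 arrays and are dominated by the single array that stands apart for each profile.

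For 5 of the 6 members measured on all 4 arrays the deltaDC spleen signal was at least 2-fold above each of the other 3, as it was for 2.47% of the 12285 genes so measured. Klra1 was the exception. Signals on this array chose the members, so nothing is read from this comparison.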

How the data were processed

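RNA of 4 pooled Treg samples was hybridised to 1-colour Agilent arrays. Per the file headers, the authors' files hold Agilent Feature Extraction 10.7.3.1 output, with background-subtracted processed signals (intensity, linear scale) and a flag per spot for signal well above background. The authors' deposited log2 table, used as an alternative, correlates with its own arrays, but its scale and centring are not stated (column medians 4.10 to 4.15). Probe coordinates are mm9 per the file headers. Probes were named through their listed transcript accessions where RefSeq holds them (27489 probes) and otherwise by the file's symbol (3552); 24624 had no gene. The brightest probe stood for a gene. Signals were set to each array's 75th percentile in log2. Where 1 of 2 arrays was not above background, the bright signal was set against the lowest signal well above background, or the dim signal if higher. The shares over all genes given for bounds count both kinds. In R 4.3.3, limma 3.58.1 fitted genotype plus organ over genes above background on at least 2 arrays, tested on simulated data. The members and gene lists were chosen with earlier results of these data known. One NK marker is not reported here. Genes named were all members, list genes past 2-fold (at most 8 a list), NK markers, and the 5 nearest profiles of Klrc1, Klrb1c, Klrg1 and Klra7 (the last not given, being dim on 1 array). Alternatives were normexp background correction (offset 50), quantile scaling, the deposited table, other filters, the median over probes and a 4-fold threshold.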

Additional observations from a re-analysis of the deposited data

Results flagged for a closer look

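Nkg7, an NK cell granule gene given beside the members, differed between organs in opposite directions in the 2 genotypes: the log2 difference of thymus minus spleen was 1.50 in WT and -1.65 in deltaDC cells. The signals behind it were 2270 and 23813 in WT and deltaDC spleen and 7676 and 8111 in WT and deltaDC thymus. With 1 array per group the difference between the genotypes was not tested.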

How the results depend on the processing

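Counts of members at 2-fold depended on the settings as follows. With no filter on dim genes, 9 members were higher in deltaDC spleen and 8 were lower in deltaDC thymus than in deltaDC spleen, because members at background on 1 array then enter with their full ratio; over all genes the spleen count rose from 803 to 1738. The thymus count of higher members was 1 with normexp (36 of all genes against 121), 1 with the median over probes, and 0 at 4-fold. The count lower in WT thymus was 2 in the authors' deposited log2 table and 1 with the median over probes. The organ test called 0 members under every alternative run, with lowest Benjamini-Hochberg adjusted p from limma between 0.189 (normexp) and 0.414 (no filter). That count is not read as a result, since the error of the fit also holds the signals that chose the members. Over all genes the test called 213 with normexp and 0 under the other 5. Of 26 measured differences of single members, normexp moved 16 by more than the spot error, took 3 under 2-fold and changed the sign of 1. Its offset of 50 by itself shrinks ratios between low signals. The median over probes moved 6, took 2 under 2-fold and changed the sign of 1, and the deposited values moved 4 and took 1 under 2-fold. Quantile scaling moved 0. No replicate could be left out, with 1 array per group. No paired analysis was possible because each group has 1 array, apart from the genotype term of the fit, which is also the pool of mice. Signals under 50 carry the largest spot error and decide the low side of most ratios above.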
